A study of Rattus norvegicus with 6 samples.

Results

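The natriuretic peptide genes of the rat heart, the genes of their receptors and those of 2 enzymes that process the peptides were described in hearts from rats given doxorubicin and rats given vehicle. The 8 members were chosen by symbol, with earlier results of these libraries known, from the 17487 symbols with deposited counts: the peptide genes Nppa, Nppb and Nppc, the receptor genes Npr1, Npr2 and Npr3, and the protease genes Corin and Furin. All 8 were listed, each on 1 row, and 7 passed the filter on low counts that left 9205 symbols for testing. The rats were adult males of the outbred Wistar strain, with 3 in each group. The doxorubicin group received doxorubicin hydrochloride, an anthracycline cancer drug known for its toxicity to the heart, at 3.75 mg/kg into the tail vein once a week over 4 weeks. The control group received 0.9% saline on the same schedule, and each library is the heart RNA of 1 animal. The labels named the tissue as heart without saying which chamber, and gave no age, interval after the last dose or measure of heart function.

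Atrial natriuretic peptide (from Nppa) and brain natriuretic peptide (from Nppb) are hormones that heart muscle cells release when they are stretched. Both act on the receptor guanylate cyclase encoded by Npr1, which makes the second messenger cGMP, and thereby promote sodium excretion and relax vessels. Nppa is transcribed strongly in the atria throughout life and in ventricles mainly before birth and under load, which is why both transcripts are widely used as signs of a stressed ventricle. C-type natriuretic peptide (from Nppc) acts through the related cyclase encoded by Npr2, and the receptor encoded by Npr3 takes up and clears all of these peptides. Corin is a cell surface protease that cuts the Nppa precursor, and furin is a proprotein convertase of the secretory pathway that cuts the precursors of the other peptides.

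The libraries held from 2219685 to 3508282 counts, and values are given as CPM, counts scaled to a common library total, with the library totals adjusted by the trimmed mean of M-values (TMM). A limit of 3 counts corresponded to 0.852 to 1.33 CPM. Heart muscle transcripts were abundant in every library: Tnnt2, which encodes cardiac troponin T, lay between 15378 and 17860 CPM. Control library 1 stood apart on the first principal component, at -43.3 against -4.83 to 26.6 in the other libraries. It also held the most hemoglobin and other blood transcripts, 7436 CPM summed over the blood list against 701 to 2736 CPM elsewhere. The ventricular transcript Myl2 was at 12183 CPM or above in all 6 libraries.

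Of the 7 members tested, 0 passed an adjusted p of 0.05 (edgeR's quasi-likelihood test, Benjamini-Hochberg adjustment over all 9205 symbols). Of all tested symbols 0.0543% passed, while 8.10% reached an unadjusted p under 0.05. At that unadjusted level stood 2 members, Nppb and Npr3, both with higher values after doxorubicin, as for 4.00% of all symbols. Values of the groups were fully apart for 2 of the 7 members, Npr3 and Npr1, against 13.4% of all tested symbols, 6.39% higher like Npr3 and 7.06% lower like Npr1. The DESeq2 and limma voom tests also passed 0 members, with 3 at an unadjusted p under 0.05 in each; over all symbols 5.54% stood at that level in DESeq2 and 8.04% in limma voom.

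**Figure D1:**
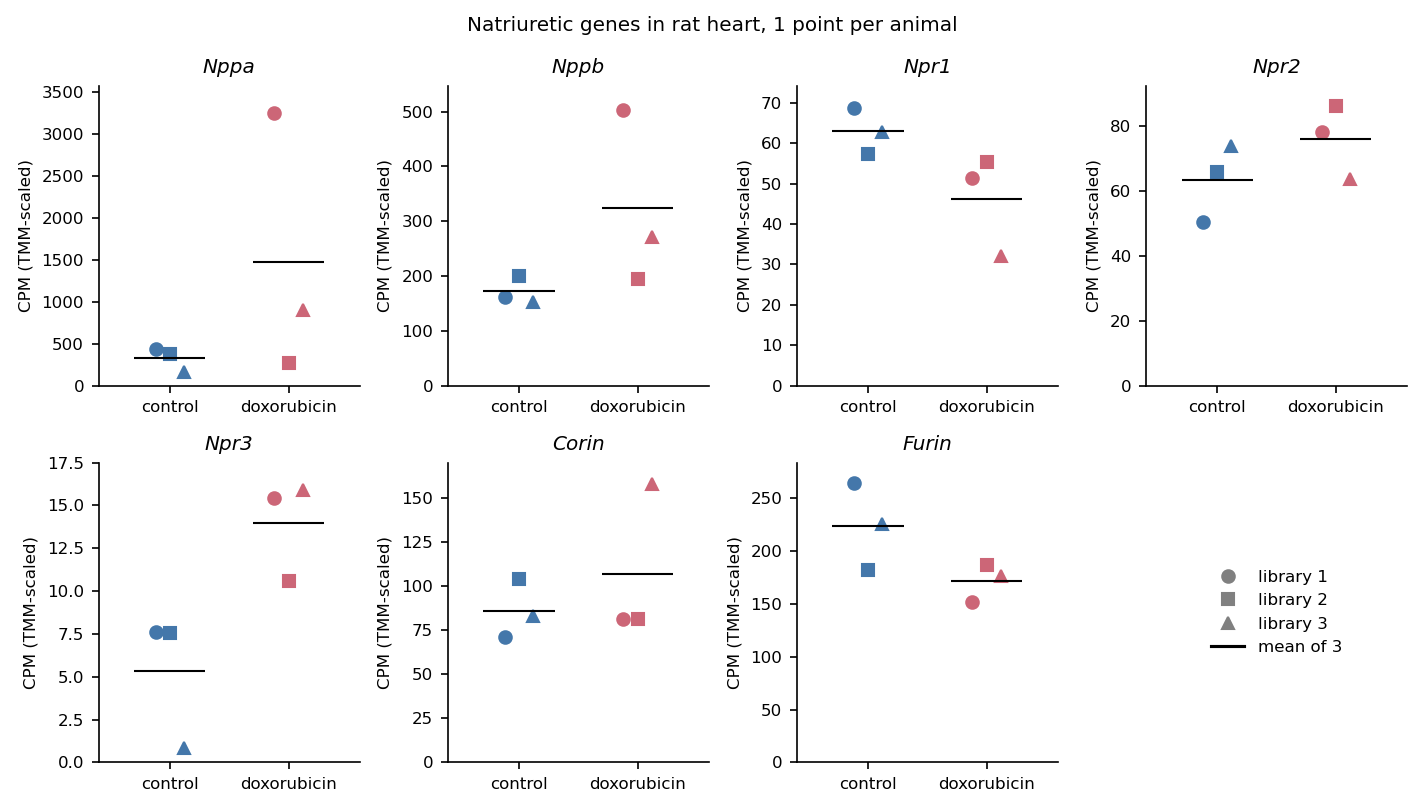
Each panel plots 1 gene's CPM (y axis, linear, from 0) in the control and doxorubicin libraries (x axis); points are animals, their shape gives the library number within the group, and the line is the mean of 3. Nppa and Nppb spread widely among doxorubicin libraries, with library 1 far above the others, whereas Npr3 values after doxorubicin all lie above control and Npr1 values all lie below.

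Nppa, the gene of atrial natriuretic peptide, was read at 444, 376 and 161 CPM in control libraries 1, 2 and 3, from 1164, 847 and 566 counts. In doxorubicin libraries 1, 2 and 3 it was read at 3252, 277 and 902 CPM, from 10130, 889 and 3060 counts. Libraries 1 and 3 of the doxorubicin group were above every control, while library 2 lay inside the control range, so the groups overlapped. Within the doxorubicin group the highest value was 11.7 times the lowest, and within control 2.77 times. The fitted log2 fold change was 2.18 (SE 1.03, 95% interval -0.52 to 4.87, edgeR adjusted p 0.678), a 4.52-fold difference with an interval that spans no difference. Without doxorubicin library 1 the log2 fold change was 0.86.

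Nppb, the gene of brain natriuretic peptide, was read at 162, 201 and 154 CPM in control libraries 1, 2 and 3. Doxorubicin libraries 1, 2 and 3 had 503, 196 and 271 CPM, from 1567, 627 and 921 counts. Libraries 1 and 3 were again above all controls, and library 2 lay just under the highest control, a small overlap that a single library on each side produced. The log2 fold change was 0.91 (SE 0.29, 95% interval 0.29 to 1.53), a 1.88-fold difference with an unadjusted p of 0.00708 and an adjusted p of 0.367 in edgeR. Without doxorubicin library 1 it was 0.45, at an unadjusted p of 0.0628 and an adjusted p of 0.776 in edgeR. Without control library 1 it was 0.88, with 0.0682 unadjusted and 0.923 adjusted in edgeR. Adjusted p over the 15 alternatives ran from 0.0792, without doxorubicin library 2, to 0.923.

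Both peptide genes therefore had the same order of doxorubicin libraries, with library 1 highest, then 3, then 2. That order was held by 14.6% of all tested symbols, and doxorubicin library 1 was the highest of the 6 libraries for 18.5%. The balance of the peptide transcripts within a library needs no scaling between libraries. Nppa took 73.3%, 65.2% and 51.1% of Nppa and Nppb counts together in control libraries 1, 2 and 3, against 86.6%, 58.6% and 76.9% in the doxorubicin libraries. The Wilson 95% intervals, which cover counting error only, were 71.0 to 75.4%, 62.6 to 67.7% and 48.2 to 54.1% in control and 86.0 to 87.2%, 56.1 to 61.1% and 75.5 to 78.1% after doxorubicin. The library with the most Nppa thus also had the largest share of Nppa, and the shares of the groups overlapped (63.2% ± 11.2 and 74.0% ± 14.2, SD, n = 3).

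Nppa and Nppb are neighbours on rat chromosome 5, with 0 other genes listed between them. The 250 bases before each start site are shown because the pair shared its order across the doxorubicin libraries and its control regions are well studied (RefSeq, build GRCr8, + strand, Nppa at chr5:163711934-163712183 and Nppb at chr5:163699758-163700007). Capitals mark, on either strand, the letters AGATAA or TGATAA bound by GATA factors, GGAATG (the M-CAT element bound by TEAD factors), AAGTG (the core bound by Nkx2-5) and TATAAA (the TATA box).
Nppa: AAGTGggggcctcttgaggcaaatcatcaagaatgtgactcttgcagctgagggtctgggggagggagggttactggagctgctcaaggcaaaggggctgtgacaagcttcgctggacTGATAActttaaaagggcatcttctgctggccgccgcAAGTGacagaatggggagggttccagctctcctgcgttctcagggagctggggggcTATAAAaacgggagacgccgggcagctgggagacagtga
Nppb: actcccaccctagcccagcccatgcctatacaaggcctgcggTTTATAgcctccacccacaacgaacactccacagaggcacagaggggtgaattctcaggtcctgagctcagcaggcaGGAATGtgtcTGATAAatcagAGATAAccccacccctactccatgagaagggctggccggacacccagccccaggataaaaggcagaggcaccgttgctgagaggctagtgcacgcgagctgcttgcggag
The Nppa stretch held TGATAA from 132 to 127 bases before the start, AAGTG at 250 to 246 and at 95 to 91 bases before it, and TATAAA at 39 to 34 bases before it. The Nppb stretch held GGAATG at 131 to 126, TGATAA at 121 to 116 and AGATAA at 110 to 105 bases before the start, a cluster with no overlapping letters, and TATAAA on the other strand at 208 to 203. Among 33469 promoter windows of this length in the table, 16.9% held one of the GATA letters, 12.1% GGAATG, 40.6% AAGTG and 12.9% TATAAA. These matches describe the letters only, and the TATAAA on the other strand is not read as the TATA box of Nppb. Promoter entries were found for 6 of the 8 members, not for Npr2 and Furin.

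Transcripts of the factors that bind these letters were read as follows. Gata4 had 175 ± 16.9 CPM in control and 168 ± 8.08 CPM after doxorubicin (SD, n = 3), or -0.06 (SE 0.17) as a log2 fold change. Gata6, a related factor, had 116, 126 and 127 CPM in control libraries 1, 2 and 3, against 163, 151 and 206 CPM in the doxorubicin libraries, with no overlap, a log2 fold change of 0.49 (SE 0.18) at an edgeR adjusted p of 0.471. Nkx2-5 showed a log2 fold change of -0.42 (SE 0.24), with overlap of the groups. In control libraries 1, 2 and 3 it was read at 295, 171 and 158 CPM, highest in control library 1. The doxorubicin libraries had 125, 184 and 157 CPM of Nkx2-5. Tead1, at 15 to 85 counts, showed a log2 fold change of 0.52 (SE 0.52). Tead1 was read at 5.73, 12.4 and 8.24 CPM in control and at 5.78, 6.55 and 25.1 CPM in doxorubicin libraries 1, 2 and 3. Only doxorubicin library 3 lay above the controls for Tead1. Gata4, Nkx2-5 and Tead1 were picked for the motifs shown.

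A list of 32 regulators reported to act on the 2 peptide genes had 24 tested members. Of these, 0 passed the adjusted threshold and 2 had an unadjusted p under 0.05, Gata6 and Tbx20, against 8.10% of all tested symbols. Log2 fold changes were positive for 18 and negative for 6, with a median of 0.15 against 0.02 over all symbols. Tbx20, a T-box factor of heart muscle, was read at 4.96, 9.77 and 7.38 CPM in control and at 22.8, 5.62 and 36.3 CPM in doxorubicin libraries 1, 2 and 3, so its library 2 also lay within the control range. Atf3, an early stress response factor, was at 7.26, 7.55 and 8.52 CPM in control and at 150, 15.6 and 12.4 CPM in doxorubicin libraries 1, 2 and 3 (log2 fold change 2.91, SE 1.26, edgeR adjusted p 0.639). Its high reading stood in the same library as that of Nppa and Nppb. Jun, an AP-1 subunit, showed a log2 fold change of 0.30 (SE 0.17), without overlap of the groups.

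Because Nppa is an atrial transcript, markers of atrial muscle were read beside it. Of the 18 listed atrial genes, all had rows, 14 were tested and 0 passed, with a median log2 fold change of -0.23. Their summed level was 1991 to 2818 CPM in control and 1937 to 3049 CPM after doxorubicin, and most of that sum was Pam, an enzyme gene that ventricles also transcribe. The defining atrial transcripts Sln, Myl4, Myl7 and Bmp10 together had 256, 12.4 and 26.1 CPM in control libraries 1, 2 and 3, against 34.3, 9.98 and 15.9 CPM in doxorubicin libraries 1, 2 and 3. Myl7, the atrial regulatory myosin light chain, was at 164 CPM in control library 1 and between 2.06 and 6.42 CPM in the other 5 libraries. Sln, which encodes the calcium pump inhibitor sarcolipin, had 60, 0 and 59 counts in the controls against 6, 1 and 0 counts after doxorubicin, by library number. In doxorubicin library 1, the library with the most Nppa, Myl7 was thus at 6.42 CPM and Sln at 1.93 CPM, while Myl4, the atrial essential light chain that ventricles also use before birth, was at 26.0 CPM, second to the 68.3 CPM of control library 1. The library with the most Myl7 had 444 CPM of Nppa. Without that control library the log2 fold change of Nppa was 2.48. Within the doxorubicin group the summed defining atrial transcripts had the library order of Nppa, 1, 3 and 2. So did Myl4, at 26.0, 5.30 and 13.6 CPM in libraries 1, 2 and 3, while Myl7 and Sln were lowest in library 3. The part of atrial tissue in the Nppa values was not tested.

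**Figure D2:**
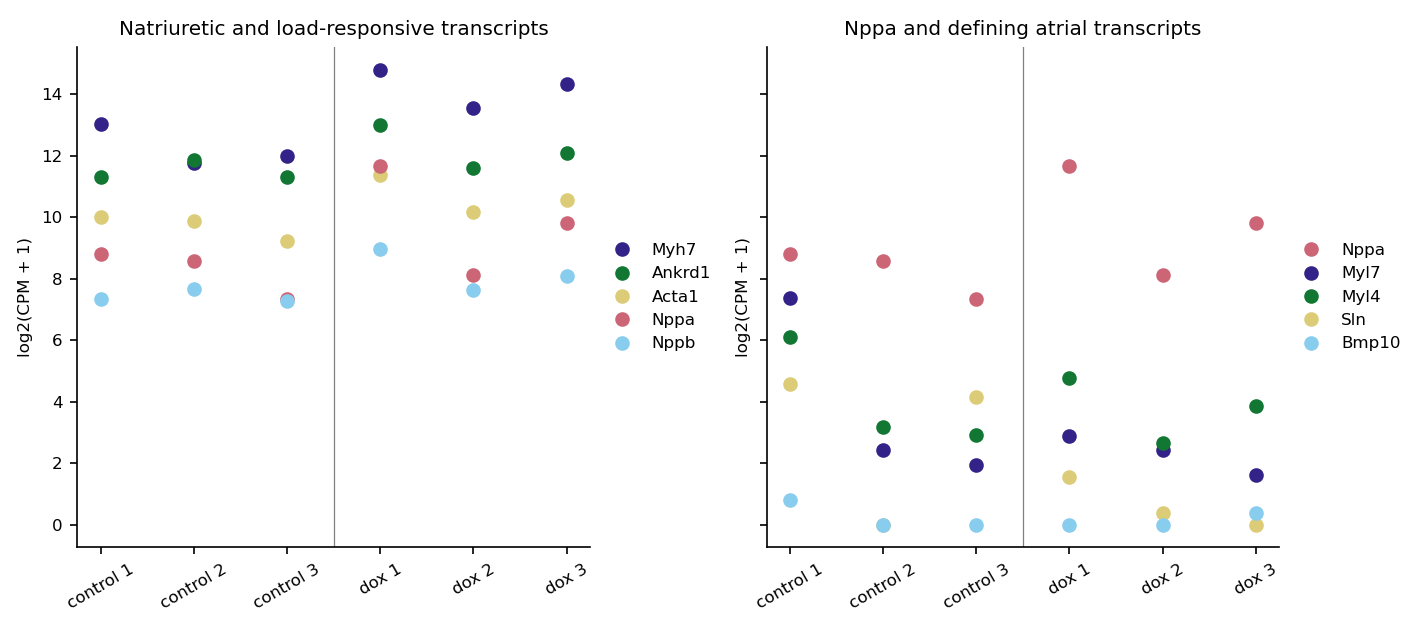
Both panels plot log2(CPM + 1) (y axis) in each library (x axis; dox is doxorubicin), 1 point per gene and library. On the left, Nppa, Nppb, Ankrd1, Acta1 and Myh7 are each highest in doxorubicin library 1; on the right, Myl7, Myl4 and Sln are highest in control library 1, not in the library with the most Nppa. Levels are not divided by transcript length, so genes are not to be compared with each other.

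Other transcripts of the loaded or fetal ventricle were set beside the peptides. Of 18 listed genes of this programme, 16 other than Nppa and Nppb, 12 were tested and 0 passed the adjusted threshold. An unadjusted p under 0.05 in edgeR was reached by 9 of the 12, against 8.10% of all tested symbols. Of these 8 were higher after doxorubicin, against 4.00% of all, and 1, Myh6, was lower. The median log2 fold change was 0.87 against 0.02 over all symbols. This list was drawn up with earlier results of these libraries known, so its direction is not independent evidence. Acta1, the skeletal actin gene, was at 1026, 930 and 600.3 CPM in control and 2647, 1137 and 1490 CPM in doxorubicin libraries 1, 2 and 3. Myh7, the beta myosin heavy chain gene, was at 8298, 3450 and 4059 CPM in control and 28291, 11993 and 20432 CPM in the doxorubicin libraries (edgeR adjusted p 0.0944). Both kept the order of libraries 1, 3 and 2 seen for the peptides, and both had all doxorubicin libraries above control, library 2 included. Spp1, the gene of the matrix protein osteopontin, had 4 to 25 counts in control and 32 to 110 after doxorubicin (log2 fold change 2.14, SE 0.50, edgeR adjusted p 0.158). Mybpc2, a myosin binding protein gene of fast skeletal muscle, showed a log2 fold change of 1.67 (SE 0.42).

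Pattern likeness was measured as Pearson's r of log2 CPM over the 6 libraries against 8606 other symbols with a mean of at least 5 CPM. These values are descriptions, the 6 points share the 2 treatment groups, and with 6 points many symbols reach a high r. The 5 nearest to Nppb were Ankrd1 (0.991), Tns3 (0.988), Smad7 (0.988), Plppr2 (0.984) and Nfs1 (0.984). Ankrd1 encodes an ankyrin repeat protein of the sarcomere and nucleus that responds to stretch, and it was read at 2524, 3687 and 2529 CPM in control and at 8204, 3092 and 4342 CPM in doxorubicin libraries 1, 2 and 3. Like Nppb it had its doxorubicin library 2 below control library 2. The 5 nearest to Nppa were Pkd2 (0.987), Pprc1 (0.984), Mtmr3 (0.980), Ghitm (0.974) and Tnfaip2 (0.972), all with smaller log2 fold changes, from 0.23 to 0.49.

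Nppc, the gene of C-type natriuretic peptide, was listed at 0 counts in all 6 libraries. A count of 0 allows up to 3 counts per library, 0.852 to 1.33 CPM. Among the listed genes Fhl1 and Ptprc, which heart muscle and white blood cells are known to transcribe, were also listed at 0 throughout. Fhl1 had 5 rows in the counts, while Nppc had 1. Whether a row at 0 reflects the tissue or the counting was not tested.

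Npr1, the gene of the signalling receptor for both heart peptides, was read at 68.7, 57.3 and 62.8 CPM in control libraries 1, 2 and 3, from 180, 129 and 221 counts. In doxorubicin libraries 1, 2 and 3 it was at 51.4, 55.2 and 32.1 CPM, from 160, 177 and 109 counts. All doxorubicin values lay under all control values, by a narrow margin between doxorubicin library 2 and control library 2. The log2 fold change was -0.45 (SE 0.23, 95% interval -0.93 to 0.04, edgeR adjusted p 0.636), and without doxorubicin library 3 it was -0.23.

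Npr3, the gene of the clearance receptor, was read at 7.64, 7.55 and 0.852 CPM in control libraries 1, 2 and 3. Its readings after doxorubicin were 15.4, 10.6 and 15.9 CPM, in the same library order. These levels rest on few reads, 20, 17 and 3 counts in control and 48, 34 and 54 after doxorubicin, and all doxorubicin values lay above all control values. The log2 fold change was 1.45 (SE 0.53, 95% interval 0.32 to 2.58), a 2.74-fold difference with an unadjusted p of 0.0155 and an adjusted p of 0.452 in edgeR. Without control library 3, the one with 3 counts, it was 0.88 at an unadjusted p of 0.0433 in edgeR.

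Npr2, the gene of the receptor for C-type natriuretic peptide, was read at 50.4, 65.7 and 73.8 CPM in control and at 78.0, 86.1 and 63.7 CPM in doxorubicin libraries 1, 2 and 3. The groups overlapped, with a log2 fold change of 0.26 (SE 0.21, 95% interval -0.18 to 0.70, edgeR adjusted p 0.782).

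The receptors were also compared within each library, where no scaling enters; these are shares of counts and, without transcript lengths, compare libraries and not genes. Npr3 took 10%, 11.6% and 1.34% of Npr1 and Npr3 counts together in control libraries 1, 2 and 3, with Wilson 95% intervals of 6.57 to 14.9%, 7.40 to 17.9% and 0.457 to 3.86%. After doxorubicin it took 23.1%, 16.1% and 33.1%, with intervals of 17.9 to 29.3%, 11.8 to 21.7% and 26.4 to 40.7%. The library shares did not overlap between the groups (7.66% ± 5.54 and 24.1% ± 8.55, SD, n = 3), although the counting intervals of control library 2 and doxorubicin library 2 did. Npr1 took 57.7%, 46.6% and 45.9% of Npr1 and Npr2 counts in control libraries 1, 2 and 3, against 39.7%, 39.1% and 33.5% after doxorubicin, with no overlap between the groups. Npr3 took 13.2%, 10.3% and 1.14% of Npr2 and Npr3 counts in control and 16.5%, 11.0% and 20.0% after doxorubicin, and here the groups overlapped, with doxorubicin library 2 under control library 1. The separation of Npr3 against Npr1 follows from the separate ranges of both genes and adds no further result.

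**Figure D3:**
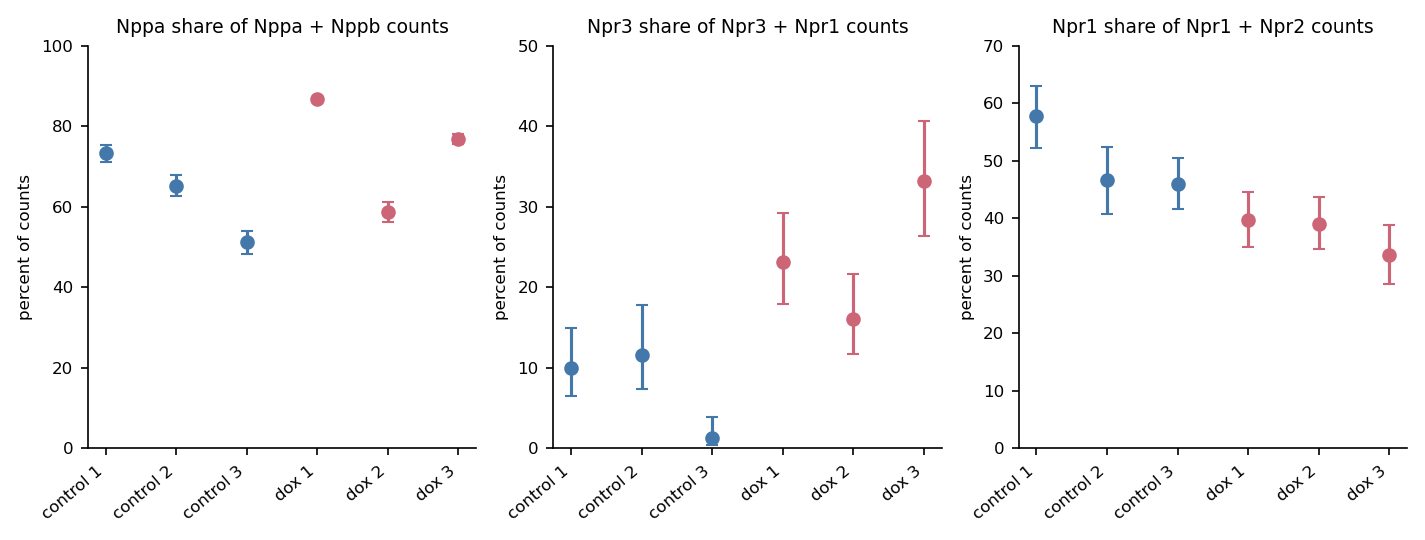
Each panel plots a share of the counts of 2 members (y axis, percent, scale differing by panel) in each library (x axis; dox is doxorubicin), with Wilson 95% intervals for counting error as bars. The Nppa share overlaps between the groups, while the Npr3 share against Npr1 lies higher and the Npr1 share against Npr2 lower in all 3 doxorubicin libraries; the Npr3 share against Npr2, not plotted, overlaps.

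Npr3 is made by the endocardium, the inner lining of the heart, among other cells. Of 11 listed endocardial genes 10 were other than Npr3, 7 were tested and 0 passed or had an unadjusted p under 0.05, with a median log2 fold change of 0.05. Their summed level was 261 to 328 CPM in control and 277 to 436 CPM after doxorubicin, with Vwf the most abundant, at 174 ± 18.4 and 223 ± 53.7 CPM (SD, n = 3), and Hapln1 at 0 to 3 counts. Control library 3, the lowest for Npr3, was also the lowest for this sum. In doxorubicin libraries 1, 2 and 3 the sum was 327, 436 and 277 CPM. There library 2, the lowest of the group for Npr3, had the highest sum, and library 3, the highest for Npr3, the lowest. Most of this sum was Vwf, which had the same order, at 227, 275 and 168 CPM in doxorubicin libraries 1, 2 and 3. Not all listed genes had that order. Nfatc1, for 1, was at 13.5, 16.2 and 25.1 CPM, highest in library 3 like Npr3. In tissue RNA, fewer cells of a type and less RNA per cell cannot be told apart. The endothelial list had all 15 genes tested, 0 passed, 9 lower and 6 higher, with a median of -0.15. Its sum was 3359 to 3818 CPM in control and 2704 to 3144 CPM after doxorubicin. That is the direction of Npr1, which vessel linings also transcribe. The sum leaned on its most abundant genes, Fabp4 (means of 967 CPM in control and 712 CPM after doxorubicin) and Aqp1 (690 and 483 CPM). The part of these cells in the Npr1 and Npr3 values was not tested.

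The remaining marker lists gave 0 passing genes except for heart muscle genes, of which 1 of 10 tested, Ryr2, passed, with 7 lower and a median of -0.16. Medians were -0.32 over 9 ventricular genes, -0.02 over 12 fibroblast genes, -0.07 over 11 smooth muscle and pericyte genes, -0.04 over 4 conduction system genes and -1.07 over 7 blood genes. The macrophage median was 0.35 over 11 genes, and the mesothelium list had 1 tested gene.

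Corin, the gene of the protease that cuts the Nppa precursor, was read at 71.0, 104 and 82.9 CPM in control and at 81.5, 81.1 and 158 CPM in doxorubicin libraries 1, 2 and 3. Only library 3 lay above the controls. The log2 fold change was 0.32 (SE 0.26, 95% interval -0.24 to 0.87, edgeR adjusted p 0.789), and it was -0.07 without doxorubicin library 3. Doxorubicin library 1, with 3252 CPM of Nppa, thus had Corin within the control range.

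Furin was read at 265, 182 and 225 CPM in control and at 152, 187 and 176 CPM in doxorubicin libraries 1, 2 and 3. Library 2 after doxorubicin lay just above control library 2, and the other values did not cross. The log2 fold change was -0.38 (SE 0.19, 95% interval -0.79 to 0.03, edgeR adjusted p 0.626). In the gene list of build GRCr8, Npr1 and Furin each overlapped 1 uncharacterised gene and Corin 2. The use of strand in counting was not given in the sources used here, so reads of such partners cannot be told apart.

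**Figure D4:**
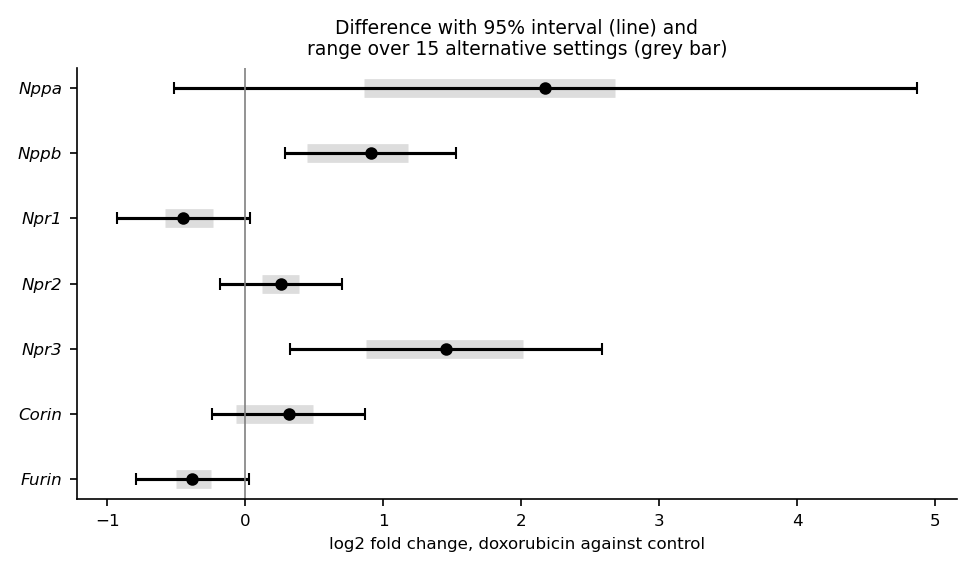
Points are log2 fold changes of doxorubicin against control (x axis) for the 7 tested members (y axis), lines are 95% intervals from edgeR's fit, and grey bars give the range over 15 alternative settings. The intervals of Nppb and Npr3 lie above 0 before adjustment for the number of symbols; that of Nppa is the widest of the 7.

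Other enzymes that process or degrade natriuretic peptides were taken from a list of 9, of which 6 were tested and 0 passed, with a median log2 fold change of -0.19. Pcsk6, the convertase that activates corin, was read at 204, 224 and 215 CPM in control and at 131, 201 and 169 CPM in doxorubicin libraries 1, 2 and 3, below control in each (log2 fold change -0.36, SE 0.19, edgeR adjusted p 0.666). Dpp4, a membrane peptidase gene, was the 1 with an unadjusted p under 0.05, at 39.1 ± 16.3 CPM in control and 20.8 ± 3.99 CPM after doxorubicin (SD, n = 3), with overlap. Ide, which encodes the insulin-degrading enzyme, and Pcsk7, another convertase, stood at 0.15 (SE 0.21) and 0.10 (SE 0.22) on the log2 scale. Mme, which encodes neprilysin, the main degrading enzyme, had 2 to 10 counts per library, and Ostn, whose product osteocrin binds the clearance receptor, was listed at 0.

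Downstream of the receptors, 18 genes of cGMP synthesis, effect and breakdown were listed, and 11 were tested. Of these 0 passed, 8 had positive log2 fold changes, and the median was 0.34. Rgs2, a regulator of G protein signalling that cGMP-dependent kinase activates, was the 1 with an unadjusted p under 0.05. It was read at 16.4, 18.7 and 16.8 CPM in control and at 31.8, 28.4 and 39.5 CPM in doxorubicin libraries 1, 2 and 3, well separated, with a log2 fold change of 0.95 (SE 0.24, edgeR adjusted p 0.182). Pde9a, a phosphodiesterase that breaks down cGMP, was at 9.55, 7.55 and 9.37 CPM in control and at 14.4, 12.2 and 12.1 CPM after doxorubicin, also without overlap (log2 fold change 0.54, SE 0.30). Gucy1a1, a subunit of the nitric oxide receptor, and Abcc4, a cyclic nucleotide exporter, had 0.43 (SE 0.41) and 0.47 (SE 0.37) on the log2 scale. Pde5a had 3 to 9 counts per library and did not pass the filter, and Pde2a, on 3 rows, was listed at 0.

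Load and hormone signals upstream of peptide transcription, with their receptors and relays inside the cell, formed a list of 21 genes. Of these 16 were tested and 0 passed, 8 with positive and 8 with negative log2 fold changes. Their median was 0.00 on the log2 scale. Ednra, the endothelin receptor of muscle cells, was read at 27.5, 36.4 and 42.0 CPM in control and at 76.1, 57.1 and 65.4 CPM in doxorubicin libraries 1, 2 and 3, with no overlap (log2 fold change 0.90, SE 0.22, edgeR adjusted p 0.158). Its ligand gene Edn1 had 3 to 11 counts. Ctf1, the gene of the growth-promoting cytokine cardiotrophin, was below control in each doxorubicin library (19.3 ± 2.27 and 11.4 ± 3.41 CPM, SD, n = 3, log2 fold change -0.75). Nr3c2, the mineralocorticoid receptor gene, showed a log2 fold change of 0.39 (SE 0.22) without overlap, and Camk2d, a calcium-dependent kinase gene, 0.46 (SE 0.26) with overlap.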

How the data were processed

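RNA of 6 hearts was sequenced as polyadenylated mRNA libraries, per the labels' protocols. The authors deposited raw read counts per gene symbol, 1 column per animal, with no normalization. FastQC, Trimmomatic, STAR, HTSeq and the build mRatBN7.2 are named in the submitters' processing notes; annotation, counting mode and strand are not given in the sources used here. The 18473 rows were summed to 17487 symbols, of which 4437 were at 0 throughout. Symbols were tested in edgeR 4.0.16 under R 4.3.3 by the quasi-likelihood F test, with treatment as the sole term, TMM factors, robust dispersion and filterByExpr (minimum count 10, minimum total 15), adjusted by the Benjamini-Hochberg method over all 9205 tested symbols at a threshold of 0.05. Its script was tested on simulated data. A standard error is the absolute log2 fold change over the square root of F. Log2 CPM for pattern likeness used a prior count of 2.

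Alternatives were other scaling factors, other filters, DESeq2 1.42.0, limma 3.58.1 voom, a replicate block, unsummed rows and leaving out each library. Members and lists were chosen with earlier results of these data known. Named genes were all members and, from each pathway list, genes past the threshold, otherwise the 4 with the smallest p among those with a mean of at least 5 CPM; for likeness, the 5 highest r, of which the lists for Npr1 and Npr3 are given in the closing observations. Other genes named were chosen after their values were seen. Promoter sequences are from RefSeq (GRCr8), matched by symbol.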

Additional observations from a re-analysis of the deposited data

How the results depend on the processing

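In all 15 alternatives 0 of the 7 tested members passed the adjusted threshold, and 1 to 4 reached an unadjusted p under 0.05. The share of all symbols at that level ran from 5.54%, in DESeq2 with 3 members, to 9.53%, without doxorubicin library 2 and with 4 members. Of 105 member values 104 kept their sign; Corin became -0.068 on the log2 scale without doxorubicin library 3 and was at most 0.49, without doxorubicin library 2. On that scale the other members lay at 0.86 to 2.68 for Nppa, 0.45 to 1.18 for Nppb, 0.88 to 2.01 for Npr3, -0.58 to -0.23 for Npr1, 0.12 to 0.39 for Npr2 and -0.50 to -0.24 for Furin. Leaving out 1 library at a time gave 2 to 5 members without overlap between the groups: the 5, with Nppa and Nppb among them, came without doxorubicin library 2, and 4 without control library 2. With 3 against 2 libraries full separation is more frequent, and it held for 20.6% to 26.5% of all symbols in these fits against 13.4% with all libraries, so the higher counts are not read as a result.

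Over all symbols, against 5 calls, scaling by library size only gave 0 (713 at an unadjusted p under 0.05) and shifted the median over all symbols from 0.02 to 0.10 on the log2 scale. With no filter there were 61 calls, with a mean of at least 5 CPM 1, with DESeq2 74, with limma voom 0 (740 at an unadjusted p under 0.05), and 0 to 35 when 1 library was left out. The cause was not tested. The replicate number as a block gave 13 calls and moved no member past the threshold, with Nppa at 1.73 and Nppb at 0.81; same-numbered libraries are different animals and did not deviate together (mean r -0.073 over 3 pairs). Depth limits Npr3 most among tested members, at 3 to 54 counts per library.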

Other observations

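Likeness to the receptor genes was described in the same way as for the peptides, over the 6 libraries and with no test. The 5 symbols nearest to Npr3 were Hspa1l (0.998), Lto1 (0.972), Sox4 (0.969), C5ar1 (0.961) and Mief1 (0.958), where the value is Pearson's r of log2 CPM. Hspa1l, a heat shock protein gene, was read at 16.0, 16.4 and 8.80 CPM in control libraries 1, 2 and 3 and at 19.9, 17.5 and 20.0 CPM in doxorubicin libraries 1, 2 and 3, so control library 3 was low for it as for Npr3. The 5 nearest to Npr1 were Cmtm3 (0.992), Sh3bgr (0.990), Mrps30 (0.986), Dchs1 (0.980) and Tuba1a (0.979), each with its lowest reading in doxorubicin library 3. None of these symbols was on the lists.

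Among the 14 tested atrial markers, 3 had an unadjusted p under 0.05 in edgeR, against 8.10% of all tested symbols. Stard10, a lipid transfer protein gene, was at 51.2, 42.2 and 26.1 CPM in control and at 21.5, 19.0 and 18.3 CPM in doxorubicin libraries 1, 2 and 3 (log2 fold change -1.01, SE 0.27, adjusted p 0.207). Kcnj5, a potassium channel gene, and Dkk3, a secreted protein gene, stood at 0.71 (SE 0.24) and 0.57 (SE 0.21) on the log2 scale. Atrial genes thus did not share a direction, and 0 passed the adjusted threshold in edgeR.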
